A study of Mus musculus with 2 samples.

Results

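Cytosolic ribosomal protein genes encode the proteins of the 40S and 60S subunits of the ribosome that translates nuclear-encoded messenger RNA. They were picked by symbol (Rps or Rpl names, Rpsa, Rplp0, Rplp1 and Rplp2, pseudogene names left out), and 82 of the 32285 genes counted were kept, 50 of the large and 32 of the small subunit. The rule asked for at least 50 UMIs (unique molecular identifiers, 1 per captured transcript) over both samples. Of 84 matching symbols, Rpl10l with 0 UMIs and Rpl3l with 37 UMIs fell below it, and Rpl39l with 54 UMIs stood just inside. The other 81 genes each had at least 1000 UMIs and carry the comparisons of single genes.

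The cells were LSK cells of the bone marrow, sorted for Sca-1 and c-Kit and against lineage markers. This fraction contains the haematopoietic stem cells (HSCs) and the multipotent progenitors (MPPs). It was profiled by CITE-seq, which reads RNA and antibody tags on surface proteins from the same cell. One pool came from mice given deferoxamine, an iron chelator, at 50 mg/kg, and the other from mice given the vehicle HBSS, each daily for 7 days in every 4 weeks over 13 months, starting at about 6 months of age. About 20000 LSK cells were sorted per sample, labelled with 1 hashtag antibody per condition, mixed and loaded together. The purpose given was to study long-term iron chelation during HSC ageing. Strain and number of mice were not given in the sources used here, so with 1 pool per condition no test across animals was made. All 95% intervals given are for counting error alone.

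Ribosomal protein messenger RNAs are among the most abundant in the cell and are made in near balance, since a ribosome needs its proteins in fixed proportions. Most begin with a run of pyrimidines at the cap, the 5′ terminal oligopyrimidine (TOP) motif, through which mTOR and LARP1 adjust their translation without necessarily changing the amount of messenger RNA. In blood formation the family is known for Diamond-Blackfan anaemia, a failure of red cell production caused by loss of 1 copy of one of these genes, and HSCs are known for a low rate of protein synthesis. The values below are messenger RNA levels, not ribosomes or translation.

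The control pool gave 3969 cells and the chelator pool 3998 after filtering, with medians of 13705 and 14455.5 gene UMIs, and no barcode occurred in both. Cells with Xist made up 42.1% of the cells whose sex could be read in the control pool and 26.1% in the chelator pool, so values within each sex are given where they differ. Cells were assigned to surface gates by their CD135, CD48 and CD150 tags: an HSC gate (negative for CD135 and CD48, positive for CD150; 1162 control and 1310 chelator cells) and gates named MPP1, MPP2, MPP3 and MPP4. The MPP4 gate, positive for CD135 and negative for CD150, held 1510 and 1287 cells. HSC marker genes such as Procr and Hlf summed to 2124 and 2079 CPM (UMIs of a gene scaled to the total gene UMIs of the class) in the HSC gate and to 682 and 645 CPM in the MPP4 gate. Lymphoid-primed markers such as Dntt went the other way, at 27.6 and 32.1 against 956 and 1044 CPM. A tag lay within 0.25 of a gate threshold in 32.7% of control and 33.0% of chelator cells.

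Transcript starts were read for 62 of the 82 genes from the RefSeq annotation of GRCm38.p6, since the TOP motif sits there. A C at the annotated start followed by at least 4 further C or T was found at 13 of 73 member starts (17.8%) and at 823 of the 32851 starts of all genes (2.51%). A run of at least 5 C or T that opens with C and begins within 5 bases of the start was found at 31 of 73 (42.5%) against 18.3% of all. The letters CCGGAAG, the core that ETS-family factors recognise, stood on either strand of the 300-base window at 27 of 73 member starts (37.0%) against 8.86% of all starts. Each line below gives 10 bases before and 20 bases from the start, with the pyrimidine run in capitals. The genes shown come from both ends of the gate comparison that follows, with Rps10 added for its run of 10 bases. Longer runs stood at Rpl27a (17 bases), Rpl13a (14), Rpl15 (13) and Rpl35 (11). Of the 6 genes at either end, Rpl21, Rpl23 and Rps2 are not shown. Rpl23 had no run, and Rps2 had one of 6 bases that begins 4 bases after the start. The lines are therefore not a comparison of the ends.
Rps27: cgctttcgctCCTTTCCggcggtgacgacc
Rps21: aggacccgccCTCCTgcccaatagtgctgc
Rpl38: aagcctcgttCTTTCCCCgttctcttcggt
Rps10: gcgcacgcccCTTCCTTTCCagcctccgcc
Rpl37a: ctcgccggtctaaaaccgcgcatgcgcatt
Rps27l: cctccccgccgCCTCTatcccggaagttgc
Rpl36al: ccgtcgctcaggttcagttccgacttccgc
Rps25: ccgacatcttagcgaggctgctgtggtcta
Rpl4: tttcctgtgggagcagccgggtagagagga
Rpl41: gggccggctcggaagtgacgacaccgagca

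These windows are chr3:90213629-90213658 (minus strand) for Rps27, chr2:180257369-180257398 (plus) for Rps21, chr11:114668570-114668599 (plus) for Rpl38 and chr17:27635225-27635254 (minus) for Rps10. They are chr1:72711250-72711279 (plus) for Rpl37a, chr9:66946076-66946105 (plus) for Rps27l, chr12:69184048-69184077 (minus) for Rpl36al and chr9:44407704-44407733 (plus) for Rps25. The last ones are chr9:64173377-64173406 (plus) for Rpl4 and chr10:128549149-128549178 (minus) for Rpl41. Rps21 and Rps27l have a further annotated start without such a run. Starts of RefSeq models can sit a few bases from the start that a cell uses, so a missing run says only that these letters are not there.

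Ribosomal protein transcripts made up nearly the same part of the RNA in both pools. They took 26.39% of gene UMIs in the control pool and 26.49% in the chelator pool, a log2 ratio of chelator over control of 0.0056 (95% interval 0.0047 to 0.0066). The median log2 ratio of the 82 genes was 0.0054, and that of all genes with at least 1000 UMIs was -0.0035. Large and small subunit genes moved alike, with summed log2 ratios of 0.0059 and 0.0054. Within the HSC gate the summed log2 ratio was 0.0073 (0.0055 to 0.0091). That value was not stable over subsets of the gate: it was 0.028 for the Xist cells, -0.00092 where Y-linked transcripts were read, and 0.0011 once cells with a tag near a gate threshold were left out.

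Single genes stayed within a narrow band. The log2 ratios of the 81 genes had an SD over genes of 0.012, with Rps27 lowest at -0.031, where the median half-width of a counting interval was 0.0086. None of the 81 passed 1.1-fold in either direction, where 8.02% of all 9840 genes with at least 1000 UMIs did. These shares are not matched for UMI sums, and a gene with fewer UMIs passes a fold more readily by counting error. With UMI sums this large an interval leaves out 0 at very small sizes: 30 of the 81 genes lay above 0 (37.0%, against 10.8% of all genes with at least 1000 UMIs) and 5 below (6.17% against 10.6%). Animals within a pool could not be told apart, so none of these differences can be set against the spread between mice.

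Rpl14, a large subunit protein, had 2731 CPM in the control and 2793 CPM in the chelator pool (log2 ratio 0.032), and was higher in the chelator pool in both sexes (0.026 and 0.038). Rps6, the substrate of the S6 kinases downstream of mTOR, had 2394 and 2443 CPM (0.029), and Rpl31 806 and 822 CPM (0.028). Rps23 (0.026) and Rpl36a (0.023) were also among the 6 highest, although Rpl36a stood at 0.073 in cells with Xist and at -0.0023 in cells with Y-linked transcripts. The 6 lowest were Rps27 (-0.031, 2517 against 2464 CPM), Rpl10 (-0.022), which joins the large subunit late in its assembly, Rpl7l1 (-0.018), Rps7 (-0.016), Rpl6 (-0.014) and Rps15 (-0.014). Of these, Rpl7l1 (-0.069 to 0.033) and Rps15 (-0.030 to 0.003) had intervals that held 0. Rpl10 was on the low side in cells with Y-linked transcripts alone (-0.034), and stood at 0.028 in cells with Xist.

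The P-stalk proteins Rplp0, Rplp1 and Rplp2, which recruit the translation GTPases to the large subunit, had log2 ratios of 0.0073, 0.012 and 0.0050. Rpsa, a small subunit protein also known as a laminin receptor, stood at 0.0046. The Diamond-Blackfan genes Rps19, Rpl5, Rpl11, Rps26, Rps24, Rpl35a, Rps7, Rps10 and Rpl26, with Rps14 of the 5q-minus syndrome, ranged from -0.016 (Rps7) to 0.019 (Rps19). Rps19 is the one most often mutated, and its interval was 0.012 to 0.027.

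Other genes around the ribosome were given from fixed lists for the same comparison. The median log2 ratio was -0.0026 for 22 other genes with TOP starts (10 above 0), 0.013 for 78 mitochondrial ribosomal proteins (50 above 0) and -0.0068 for 35 ribosome biogenesis factors (15 above 0). It was -0.027 for 14 regulators, in which Myc, which drives transcription of ribosome genes, had 21838 and 25811 UMIs (log2 ratio 0.17). The mTOR inhibitors Sesn2 (448 and 401 UMIs, -0.23) and Ddit4 (2763 and 2669 UMIs, -0.12) were on the low side. In the HSC gate the biogenesis factors had a median of 0.067 (30 of 35 above 0), beside 0.010 for the 81 ribosomal protein genes. Of all genes with at least 1000 UMIs that had a ratio, 4664 of 9839 lay above 0 over all cells. In the HSC gate 4666 of 9827 did.

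Over all cells the sexes went in opposite directions. The summed log2 ratio of chelator over control was 0.029 among cells with Xist and -0.0081 among cells with Y-linked transcripts. Within gates the share did so in MPP1, from 26.29% to 27.06% with Xist and from 26.97% to 26.03% with Y-linked transcripts. It rose in both sexes in MPP3 and MPP4 and fell in both in MPP2. In the HSC gate it went from 27.79% to 28.34% and from 27.51% to 27.50%. That gate held 340 of 1417 control and 300 of 897 chelator cells with Xist, and the part of the gate mix was not tested. Over all cells, the intervals of the sexes lay on opposite sides of 0 for 24 of the 81 genes (29.6%, against 5.21% of all genes with at least 1000 UMIs), and in 23 of them the ratio with Xist was the one above (28.4% against 2.03%). Large UMI sums make the intervals of ribosomal protein genes narrow, and these shares are not matched for UMI sums. The sexes lay on such opposite sides and at least 0.1 apart in 3 genes, Rps21, Rps27 and Rpl17 (3.70% against 4.82%). That share lay below the one of all genes, again without matching for UMI sums. In cells with Xist, Rps21 had 3203 CPM in the control and 3382 CPM in the chelator pool (log2 ratio 0.079), and in cells with Y-linked transcripts 3306 and 3245 CPM (-0.027). For Rps27 the level went from 2380 CPM in the control to 2483 CPM in the chelator pool with Xist (0.062), and from 2568 to 2427 CPM in cells with Y-linked transcripts (-0.081). Sex and animal cannot be told apart here, since the mice behind each sex in each pool are not known.

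Within a pool, Rps27l had the largest difference between the sexes. It was higher in cells with Xist than in cells with Y-linked transcripts, at 321 against 278 CPM in the control pool (log2 ratio 0.21) and 310 against 288 CPM in the chelator pool (0.11). Rpl36al (0.12 and 0.048) and Rpl22l1 (0.10 and 0.066) lay on the same side in both pools, and Rpl21 was lowest in each (-0.12 and -0.032). The X-linked genes did not share a direction: in the control and chelator pools the log2 ratios of cells with Xist over cells with Y-linked transcripts were -0.039 and -0.010 for Rpl39, 0.011 and 0.072 for Rpl10, -0.029 and 0.0040 for Rps4x, and -0.058 and 0.017 for Rpl36a.

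**Figure D1:**
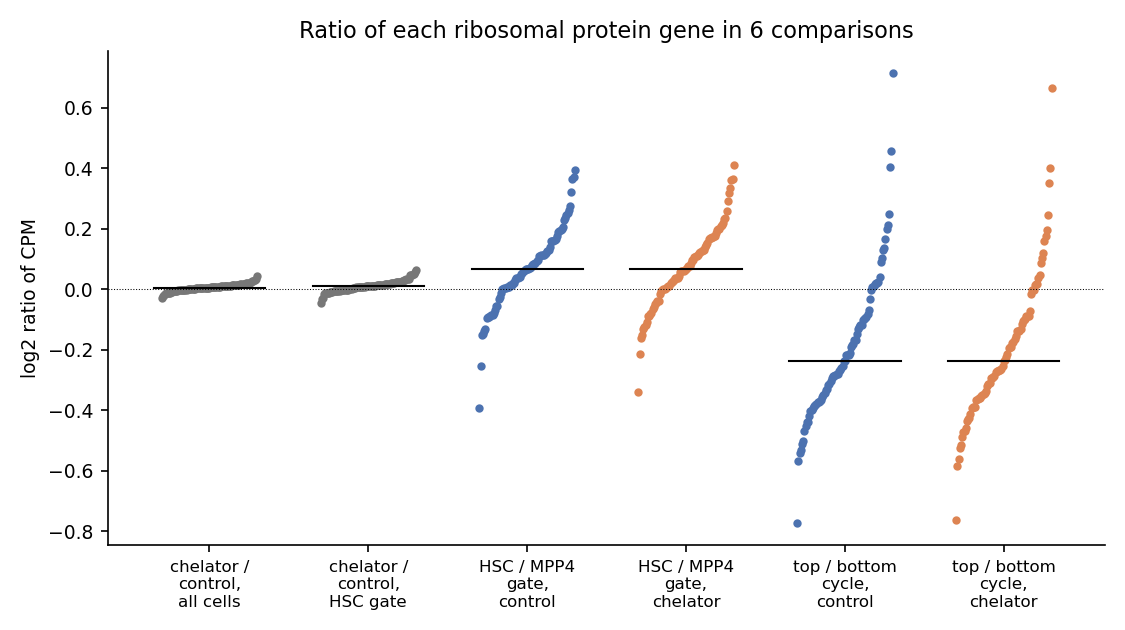
Log2 ratio of CPM for each of the 81 genes with at least 1000 UMIs, sorted within each of 6 comparisons. A point is 1 gene and the black line is the median. The chelator over control ratios lie close to 0 in all cells, with Rps27 lowest at -0.031, while the gate and cycle ratios reach from -0.77 to 0.71.

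The surface gate, unlike the condition, went with a visible difference in the ribosomal protein share. The HSC gate had the highest share of the 5 gates, 27.7% of gene UMIs in the control pool and 27.9% in the chelator pool. The MPP1 gate had 26.9% and 26.4%, MPP4 26.1% and 26.1%, MPP3 24.7% and 25.2%, and MPP2 24.9% and 24.7%. The order of MPP2 and MPP3 changed between pools. By the median cell the HSC gate stood at 28.8% and 29.0% and the MPP2 gate at 25.6% and 25.3%, with middle-50% ranges that overlapped (25.9% to 31.2% against 22.9% to 28.0% in the control pool).

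The share and the amount per cell went in different directions between the HSC gate and the MPP2, MPP3 and MPP4 gates. A median cell of the HSC gate held 3709 and 3925 ribosomal protein UMIs in the control and chelator pools, and one of the MPP2 gate held 5405 and 5347.5. The MPP3 gate had 4790 and 4752, and the MPP4 gate 4006 and 4496. The MPP1 gate, with 3264 and 3350, lay below the HSC gate in amount as well as in share. Total UMIs differed as well, with medians of 12690 and 13304 in the HSC gate, 20534.5 and 21883.5 in the MPP2 gate and 14511.5 and 16507 in the MPP4 gate. In cells of 10000 to 15000 UMIs alone the share was 29.3% and 29.4% in the HSC gate (517 and 568 cells) and 27.8% and 28.0% in the MPP4 gate (512 and 361 cells). It was 28.0% and 27.5% in the MPP1 gate and 27.3% and 27.4% in the MPP3 gate (119 and 132 cells). The MPP2 gate, with only 14 and 13 such cells, had 26.4% and 28.2%, so the order of the MPP gates was not kept in this range.

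**Figure D2:**
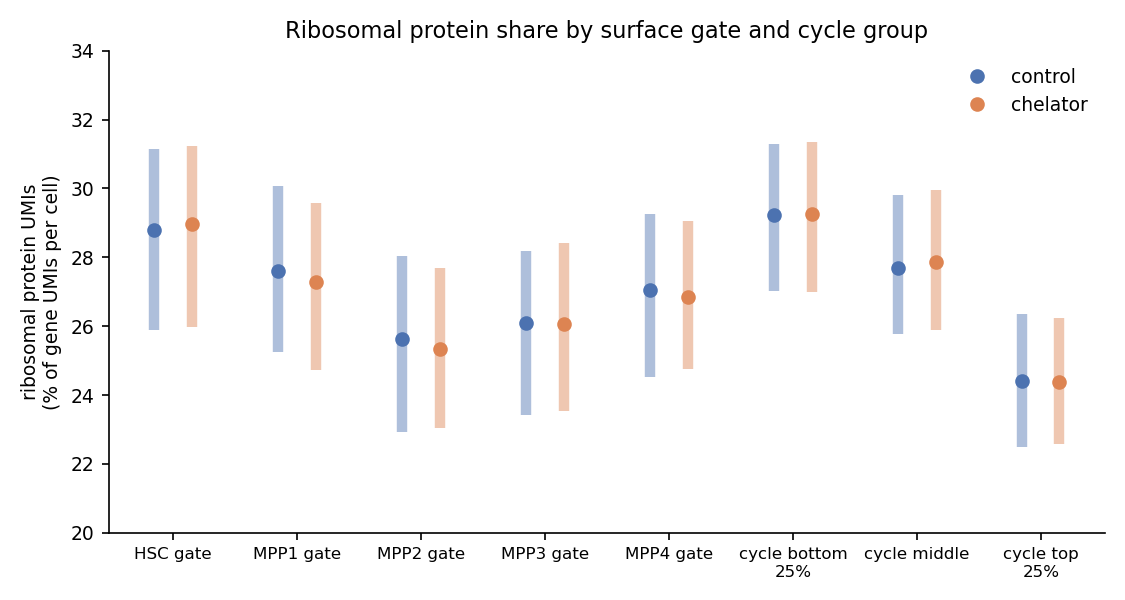
Ribosomal protein UMIs as a percentage of a cell's gene UMIs, by surface gate and by cycle group. Points are the median cell and bars span the 25th to 75th percentile of cells, and the axis starts at 20%. The pools lie close together in each class, and the medians run from 24.4% in the top cycle group to 29.3% in the bottom one.

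HSC gate and MPP4 gate were compared gene by gene, since they are the largest gates. The summed log2 ratio of HSC over MPP4 was 0.089 (0.088 to 0.091) in the control pool and 0.093 (0.091 to 0.095) in the chelator pool. The median gene stood at 0.066 in both pools, where all genes with at least 1000 UMIs had medians of -0.023 and -0.018. Of the 81 genes, 61 lay above 0 in the control pool and 60 in the chelator pool. Of all genes with at least 1000 UMIs that had a ratio, 4658 of 9830 and 4716 of 9826 did so. The family nevertheless did not move as a block: its SD over genes was 0.14 in both pools, against a median half-width of a counting interval of 0.015.

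The order of the genes was similar in the pools. The sign was shared by 78 of 81 genes, and both intervals lay above 0 for 48 (59.3%, against 27.8% of all genes with at least 1000 UMIs) and below 0 for 18 (22.2% against 31.7%). These interval shares are not matched for UMI sums, and no share over all genes is given for the shared sign. Pearson's r between the pools was 0.987 across the 81 genes, which are not independent and whose cells were processed and sequenced as 1 library. More than 25% higher in the HSC gate in both pools were 3 genes (3.70% of 81, against 17.9% of all genes with at least 1000 UMIs) and more than 20% lower, which is the same fold, was 1 gene (1.23% against 17.7%). Both shares lay below those of all genes, again without matching for UMI sums.

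The 3 genes on the high side were Rpl21, Rps27 and Rps21. Rpl21, a large subunit protein, had 3106 CPM in the HSC gate and 2367 CPM in the MPP4 gate of the control pool, and 3133 and 2357 CPM in the chelator pool. Its log2 ratios were 0.39 (0.37 to 0.41) and 0.41 (0.39 to 0.43). Levels in the MPP1, MPP2 and MPP3 gates of the control pool lay between or below those, at 2794, 2601 and 2228 CPM.

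Rps27, a zinc-finger protein of the small subunit, had 3010 against 2327 CPM in the control pool and 2917 against 2267 CPM in the chelator pool (log2 ratios 0.37 and 0.36). Rps21 had 3913 against 3042 CPM and 3905 against 3037 CPM (0.36 and 0.36). Rpl37a (0.32 and 0.33), Rpl38 (0.26 and 0.32), known for its part in translation of Hox messenger RNAs in the embryo, and Rpl23 (0.28 and 0.29), which can bind Mdm2, completed the 6 highest. All are ordinary subunit proteins of the cytosolic ribosome.

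On the low side stood Rps27l and Rpl36al, which are paralogs of standard subunit genes. Rps27l, a small subunit paralog known as a target of p53, had 242 CPM in the HSC gate and 318 CPM in the MPP4 gate of the control pool, and 246 and 311 CPM in the chelator pool. Its log2 ratios were -0.39 (-0.45 to -0.34) and -0.34 (-0.39 to -0.29). Rpl36al had 600 against 715 CPM and 607 against 705 CPM (-0.25 and -0.22). Rps25 (-0.15 and -0.16), needed for some internal ribosome entry, Rpl4 (-0.14 and -0.15), Rpl41 (-0.15 and -0.13), a very short peptide, and Rps2 (-0.13 and -0.12) came next.

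**Figure D3:**
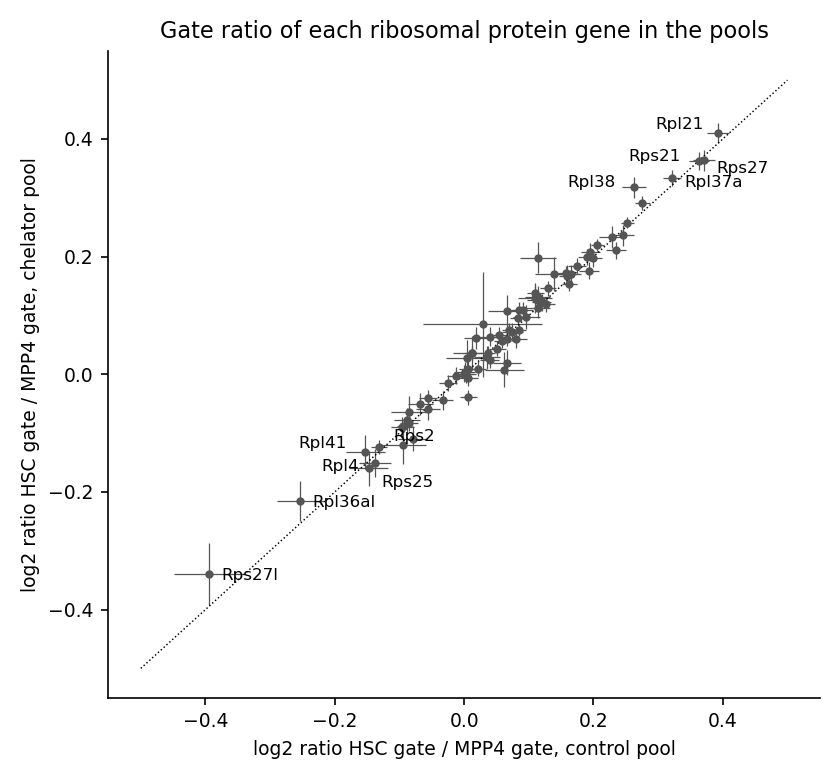
Log2 ratio of HSC gate over MPP4 gate for each of 81 genes, control pool on the x axis and chelator pool on the y axis. Bars are 95% intervals for counting error and the dotted line marks equal ratios. The points follow the line from Rps27l at -0.39 and -0.34 to Rpl21 at 0.39 and 0.41.

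The Diamond-Blackfan genes named above and Rps14 varied among themselves. Rps14 (0.24 and 0.21), Rpl26 (0.19 and 0.18), Rps10 (0.19 and 0.20) and Rps7 (0.13 and 0.15) were higher in the HSC gate. The other genes of the group ran from -0.024 (Rps26) to 0.13 (Rpl5). The stalk and related proteins divided too, with Rplp1 at 0.13 and 0.12, Rplp0 at 0.066 and 0.060, Rplp2 at -0.056 and -0.060, and Rpsa at -0.092 and -0.087.

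Most genes that build ribosomes had the lower level in the HSC gate. The 35 biogenesis factors had median log2 ratios of HSC over MPP4 of -0.31 and -0.20, with 31 and 32 of them below 0. The nucleolar genes Ncl (-0.39 and -0.36), Fbl (-0.40 and -0.30) and Nop56 (-0.50 and -0.47), which act on ribosomal RNA, were among them, and Sbds, a late 60S maturation factor, stood at 0.38 and 0.36. Mitochondrial ribosomal proteins had medians of -0.17 and -0.17 (68 of 78 below 0 in each pool), and the 22 other genes with TOP starts 0.040 and 0.034. Of all genes with at least 1000 UMIs that had a ratio, 5172 of 9830 and 5110 of 9826 lay below 0. Among regulators, Mycn was far higher in the HSC gate (2.97 and 2.97) and Myc lower (-0.81 and -0.75).

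Other cell types' markers also differed between these gates. Megakaryocyte markers summed to 724 and 725 CPM in the HSC gate and to 53.4 and 48.1 CPM in the MPP4 gate. The erythroid list summed to 62.0 and 77.7 CPM in the HSC gate and 598 and 62.2 CPM in the MPP4 gate, where Hbb-bs alone gave 460 CPM in the control pool. The list for T, NK and innate lymphoid cells summed to 55.2 and 37.5 CPM in the HSC gate and 236 and 235 CPM in the MPP4 gate, nearly all from Nkg7, with Cd3e at 0 in both. B-cell markers summed to 31.4 to 40.4 CPM, nearly all Cd79b, mature myeloid markers to 184 to 237 CPM, mostly Lyz2, and mast cell markers to 3.61 to 30.8 CPM. Stromal markers stayed under 0.62 CPM and endothelial ones ran from 0.47 to 11.1 CPM, mostly Kdr. Their part in the ratios was not tested.

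S phase and G2M genes also differed between the gates, at 1092 and 1161 against 1936 and 2075 CPM for S phase in the HSC and MPP4 gates. The gates were therefore compared again among the cells with the fewest cycle UMIs. There the sign was shared by 75 of 81 genes between pools, both intervals lay above 0 for 41 (50.6%, against 12.1% of all genes with at least 1000 UMIs) and below 0 for 16 (19.8% against 15.9%), and r was 0.942. The interval shares are again not matched for UMI sums, and no share over all genes is given for the shared sign. Rpl21 (0.32 and 0.34) was the only gene past that fold in both pools, with Rps21 at 0.32 and 0.29, Rps27 at 0.25 and 0.18, and Rps27l at -0.24 and -0.29. In cells of 10000 to 15000 UMIs, Rps21 (0.37 and 0.33) and Rpl21 (0.34 and 0.36) passed. For neither subset is a share of all genes past that fold in both pools given, so these counts have no such comparison. The biogenesis factors depended on these subsets: their medians were -0.11 and -0.027 among cells with the fewest cycle UMIs (28 and 20 of 35 below 0, and a summed log2 ratio of 0.017, -0.023 to 0.056, in the chelator pool) and -0.27 and -0.076 in cells of 10000 to 15000 UMIs. Mitochondrial ribosomal proteins had medians of -0.12 and -0.14 among the former. There 5490 of 9792 and 5440 of 9779 of all genes with at least 1000 UMIs and a ratio lay below 0. Mitochondrially encoded transcripts took 2.36% and 2.31% of gene UMIs in the HSC gate and 1.92% and 1.89% in the MPP4 gate, and their part in the ratios was not tested.

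Cells were next grouped by their cycle genes, counted over 32 fixed S phase and G2M genes after thinning each cell to 5000 UMIs. The bottom 25% had at most 2 such UMIs and the top 25% at least 21. The ribosomal protein share was 28.6% and 28.9% in the bottom group of the control and chelator pools, 27.4% and 27.6% in the middle, and 24.1% and 24.2% in the top group. The summed log2 ratio of top over bottom was -0.25 in both pools (-0.250 to -0.246 in the control pool).

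Cells of the top group held more, not fewer, ribosomal protein UMIs. Their median was 5752 and 5877.5 per cell, against 3282 and 3317 in the bottom group, while total UMIs were 23889 and 24264 against 11364.5 and 11463. A lower share here therefore stood beside a larger amount per cell, and depth of capture and RNA content per cell cannot be told apart. In cells of 10000 to 15000 UMIs the summed log2 ratios were -0.35 and -0.26.

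Of the 81 genes, both intervals lay below 0 for 62 (76.5%, against 31.6% of all genes with at least 1000 UMIs) and above 0 for 12 (14.8% against 35.2%). These shares, too, are not matched for UMI sums, nor are the shares past a fold that follow. More than 20% lower in the top group in both pools were 25 genes (30.9% of 81, against 23.4% of all genes with at least 1000 UMIs) and more than 25% higher were 3 (3.70% against 25.2%). The median gene stood at -0.24 in both pools, where the medians of all genes with at least 1000 UMIs were 0.031 and -0.00019. The SD over genes was 0.25 and 0.24, and r between the pools across the genes was 0.996.

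The lowest ratio was that of Rps27, at 3285 CPM in the bottom and 1923 CPM in the top group of the control pool, and 3254 and 1916 CPM in the chelator pool (log2 ratios -0.77 and -0.76). Rps21 (-0.57 and -0.58), Rpl38 (-0.53 and -0.56) and Rps9 (-0.54 and -0.52) followed. Rps27l and Rpl41 were among the 3 on the high side. Rps27l had 209 against 343 CPM in the control pool and 209 against 332 CPM in the chelator pool (0.71 and 0.66). Rpl41 had 764 against 1048 CPM and 778 against 1027 CPM (0.46 and 0.40). Rpl36al was the fourth highest (0.25 and 0.24). The Diamond-Blackfan genes named above and Rps14 ran from -0.41 to -0.12. In cells of 10000 to 15000 UMIs alone, Rps27l stood at 0.43 and 0.41. It was the only gene more than 25% higher in both pools there. Rpl41 did not pass, since the highest large subunit ratio was 0.17 in the control and 0.30 in the chelator pool. On the low side 25 genes passed in both pools, with Rps27 at -0.85 and -0.79. No share of all genes past that fold is given for this range.

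**Figure D4:**
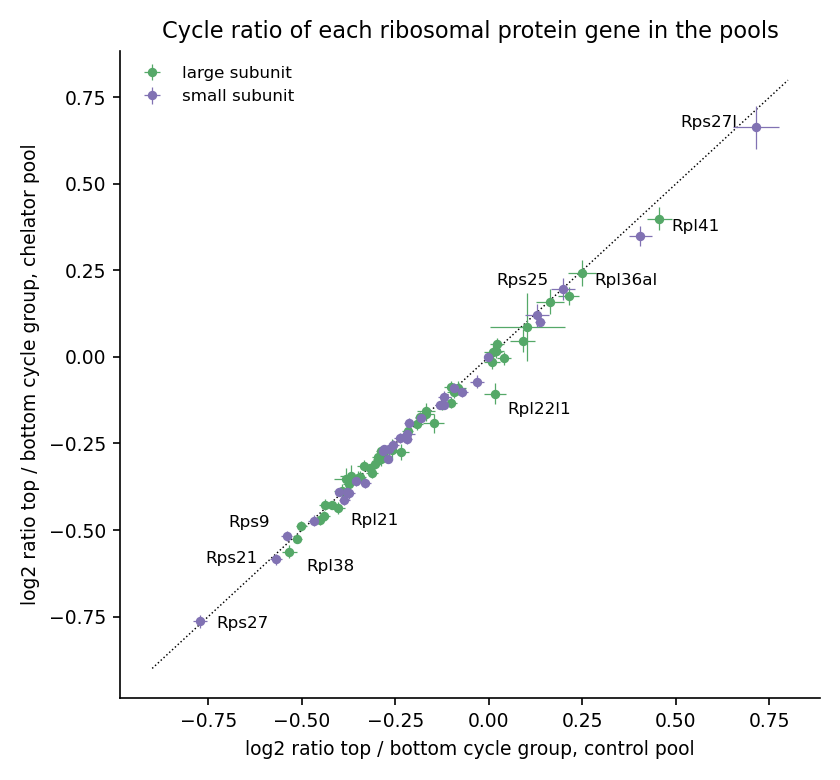
Log2 ratio of the top over the bottom cycle group for each of 81 genes, control pool on the x axis and chelator pool on the y axis, coloured by subunit. Bars are 95% intervals for counting error and the dotted line marks equal ratios. Rps27 lies lowest at -0.77 and -0.76 and Rps27l highest at 0.71 and 0.66.

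The cycle difference was also present within gates. In the HSC gate the share was 29.7% and 29.6% in the bottom and 23.1% and 23.3% in the top group, and in the MPP4 gate 28.3% and 28.2% against 24.2% and 24.6%. The MPP3 gate was an exception in its pooled share of the control pool, 20.4% in the bottom (59 cells) and 24.2% in the top group, although its median cell went from 26.9% to 24.5%. In that bottom group Ighm, the immunoglobulin heavy chain gene of B-lineage cells, stood at 5445 CPM in the control pool (23 of 59 cells with a UMI) and 1640 CPM in the chelator pool (13 of 51). One control cell held 2125 of the 4904 Ighm UMIs, with a ribosomal protein share of 5.87%. Without it, a cell singled out after its values were seen, the share of the group was 21.1%, and the part of the other cells was not tested. Rps27 stayed lowest in both gates (-0.89 and -0.83 in the HSC gate, -0.62 and -0.63 in the MPP4 gate). Rps27l and Rpl41 were among 3 genes more than 25% higher in both pools in each gate (3.70%, against 26.7% of all genes with at least 1000 UMIs in the HSC gate and 18.6% in the MPP4 gate). On the low side 45 genes passed in the HSC gate (55.6% against 19.3%) and 15 in the MPP4 gate (18.5% against 23.4%). The share thus lay above that of all genes in the HSC gate and below it in the MPP4 gate, without matching for UMI sums.

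Between the same cycle groups, biogenesis factors had median log2 ratios of 0.54 and 0.47 (34 and 31 of 35 above 0) and mitochondrial ribosomal proteins of 0.43 and 0.41 (75 and 74 of 78 above 0). Of all genes with at least 1000 UMIs that had a ratio, 5134 of 9831 and 4911 of 9822 lay above 0. The other genes with TOP starts had medians of -0.13 and -0.097, with Eef1a1, the main elongation factor, at -0.31 and -0.29 and Eef2 at -0.36 and -0.41. HSC markers summed to 1938 and 2100 CPM in the bottom group and 665 and 690 CPM in the top group, so cycle group and gate overlap, and gate ratios and cycle ratios rest on the same cells. The erythroid list summed to 32.8 and 25.5 CPM in the bottom group and to 818 and 192 CPM in the top group, and its part in the ratios was not tested. Mitochondrially encoded transcripts took 2.46% and 2.49% of gene UMIs in the bottom and 1.68% and 1.72% in the top group, and their part was not tested either.

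A pyrimidine run that begins within 5 bases of an annotated start did not separate the genes. Genes with a run at the start itself were not compared with the others. The 29 genes with a run within 5 bases had a median gate ratio of 0.047 (log2, mean of the pools) and a range of -0.37 to 0.37, and the 32 without one had 0.061 and -0.23 to 0.33. For the cycle ratio the medians were -0.16 and -0.21. Rps27 and Rps27l, at opposite ends of both comparisons, each carry a run in the windows printed above, and Rpl37a and Rpl36al, also far apart, carry none.

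Paralog pairs were compared by the share of the pair's UMIs that the paralog took. The genes of a pair can share reads, and the share is of counted UMIs without a correction for length, so it serves to compare classes of cells. Rps27l took 7.45% (95% Clopper-Pearson interval 7.23% to 7.67%) of the Rps27 pair in the HSC gate of the control pool and 7.77% (7.56% to 7.98%) in the chelator pool. The share was 8.92% and 9.21% in the MPP1 gate, 13.9% and 14.2% in the MPP2 gate, 13.5% and 13.8% in the MPP3 gate and 12.03% and 12.06% in the MPP4 gate. It was 5.98% and 6.05% in the bottom cycle group and 15.1% and 14.8% in the top group. The classes differed by far more than their counting intervals and the pools by little.

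Rpl36al took 18.3% and 18.3% of the Rpl36a pair in the HSC gate, 26.1% and 25.4% in the MPP3 gate and 24.0% and 23.5% in the MPP4 gate. Rpl22l1, the paralog that Rpl22 is known to repress, went the other way, with 36.7% and 37.3% in the HSC gate and 33.5% and 33.0% in the MPP4 gate. Rpl7l1 took 4.09% and 4.18% of the Rpl7 pair in the HSC gate and 4.67% and 4.61% in the MPP4 gate. Its own level was not lower in the HSC gate, at 96.8 against 94.9 CPM in the control and 98.3 against 92.7 CPM in the chelator pool. Rpl7 was higher there, at 2271 against 1938 and 2256 against 1920 CPM.

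**Figure D5:**
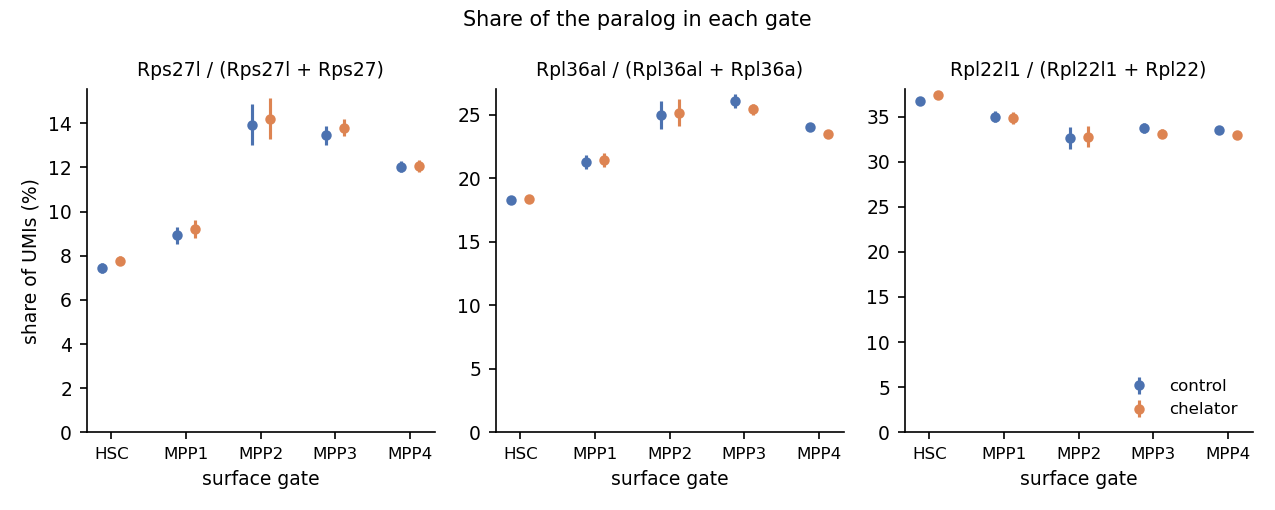
Share of a pair's UMIs taken by the paralog in each surface gate, for 3 pairs, with axes that start at 0. Points are the pools and bars are 95% Clopper-Pearson intervals. Rps27l lies at 7.45% and 7.77% in the HSC gate and at 13.9% and 14.2% in the MPP2 gate, and Rpl22l1 is highest in the HSC gate at 36.7% and 37.3%.

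Cells with erythroid transcripts (at least 3 UMIs of Klf1, Car1, Epor, Ermap or haemoglobin genes after thinning, and more than of any other lineage list) were few, 50 control and 43 chelator cells. In them small subunit genes made up 46.6% (46.4% to 46.7%) and 46.5% (46.4% to 46.7%) of ribosomal protein UMIs, below the 47.7% of all cells in either pool. Rps27l took 19.4% (18.2% to 20.7%) and 19.7% (18.3% to 21.1%) of its pair and Rpl36al 30.0% and 31.8% of its own, above the values in every gate. G2M genes summed to 2998 and 2025 CPM in these cells, beside 1572 and 1699 CPM in all cells. The part of the cycle in these shares was not tested. Cells with megakaryocyte transcripts (225 and 234 cells) had 47.3% and 47.3% small subunit UMIs, with Rps27l at 14.1% and 13.3%. Those with granulocyte-monocyte transcripts (429 and 407 cells) had 47.8% and 47.7%, with Rps27l at 15.5% and 15.9%, also above every gate.

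Rpl39l, the paralog of the exit-tunnel protein Rpl39 that is known mainly from testis, was the one gene of the 82 far from balance between the pools. It had 4 UMIs in 3 of 3969 control cells (0.0756%, 0.0156% to 0.221%) and 50 UMIs in 24 of 3998 chelator cells (0.600%, 0.385% to 0.892%). The log2 ratio of CPM was 3.57 (2.13 to 5.50). That interval counts UMIs as independent, although the 50 chelator UMIs lay in 24 cells, with up to 7 in 1 cell. Rpl39l met the minimum of 50 UMIs over both samples only with those of the chelator pool. Its imbalance is therefore tied to how it was kept. No share of genes with similarly few UMIs is given beside it, so whether Rpl39l stands out among them was not tested. The chelator cells lay in several gates, with 8 in the HSC gate (0 in control), 6 in MPP1 (1), 4 in MPP3 (0) and 6 in MPP4 (2), and in both sexes, with 5 among cells with Xist (0) and 16 among cells with Y-linked transcripts (3). Rpl39 itself had 272266 and 288485 UMIs (log2 ratio 0.011), so the paralog stayed at 0.752 CPM beside 4338 CPM in the chelator pool, and whether its UMIs are reads of Rpl39 or of another copy was not tested.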

How the data were processed

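The authors deposited 1 matrix per condition with raw UMI counts per gene, surface tag and cell, not normalized. The mm10 build, Seurat 4.3.0 and Cell Ranger 7.0.0 are listed per the submitters' processing notes, and Cell Ranger 7.0.1 per the file headers. Not given in the sources used here are the annotation release, the barcode filter and the hashtag assignment. Matrix names gave the condition, and the matching hashtag was the stronger one in 4025 of 4026 control and 4037 of 4037 chelator barcodes.

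A cell was kept from 500 detected genes on if mitochondrial UMIs were below 10%. UMIs were summed over cells, divided by all gene UMIs (63240358 and 66508812) and multiplied to CPM. Ratios carry exact conditional binomial intervals at 95%, and shares Clopper-Pearson intervals. On independent Poisson counts, the model that the ratio intervals assume, 95.4% of known ratios for 9840 genes lay inside those intervals. The draw held no clustering of UMIs within cells or animals, so it checks the calculation and not the fit to these data. No p-value was computed. For gating, each tag's centred log ratio was divided by a mixture of 2 normal components. Xist needed 2 UMIs in a cell with no Y-linked UMI, and the Y-linked class 1 UMI over 4 genes with no Xist UMI. No doublet caller was run, and 35 control and 52 chelator cells had both sex markers. Shallow cells (under 5000 UMIs, 159 and 138) are in no cycle group or lineage class. Vwf, Gata1, Flt3, Calr, Prtn3 and Cavin2 were left out of the lineage classes, in part after values had been seen.

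Members and lists were chosen with earlier results of these data known. Named were paralogs, X-linked genes, stalk proteins and Rpsa, the Diamond-Blackfan genes with Rps14, the 6 highest and 6 lowest by condition and by gate, the 4 highest and 4 lowest by cycle, and the 3 that differed most between sexes. One item that this rule names is not reported here. Counts of genes close to pseudogenes or near copies are uncertain, since reads can be split among them. Transcript starts came from RefSeq for GRCm38.p6, the assembly behind mm10. Alternatives were filters, scalings, thinning, equal weights of cells, each sex, gate margins and narrower cycle groups. The range of 10000 to 15000 UMIs was added after seeing the data. Python 3.11.15, NumPy 2.4.6, SciPy 1.17.1, pandas 2.3.3 and scikit-learn 1.9.0 were used.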

Additional observations from a re-analysis of the deposited data

Results flagged for a closer look

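In 3 genes the chelator over control ratio lay on opposite sides of 0 in the sexes, with a distance of at least 0.1 on the log2 scale. They are 3.70% of the 81 genes with at least 1000 UMIs, where 4.82% of all genes at that depth met the same criterion. These shares are not matched for UMI sums. Rps21 stood at 0.079 (0.063 to 0.094) among cells with Xist and at -0.027 (-0.039 to -0.015) among cells with Y-linked transcripts. Rps27 stood at 0.062 (0.043 to 0.080) and -0.081 (-0.094 to -0.068), and Rpl17, a large subunit protein, at 0.061 (0.030 to 0.091) and -0.044 (-0.066 to -0.021). The difference between the sexes was not tested, and the number of animals of either sex is not known.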

How the results depend on the processing

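All values here are log2 ratios unless called counts. Chelator over control, the summed ratio of 0.0056 became 0.0067 with no cell filter, 0.0032 with a stricter one, 0.0077 scaled without the members, 0.0091 with the median of all genes set to 0, 0.00049 thinned, 0.0096 with equal weight per cell and 0.011 with equal weight per sex. It was 0.029 with Xist alone and reversed to -0.0081 with Y-linked transcripts alone. The median gene went from 0.0054 to 0.025 and -0.0060 in the sexes. The count past 1.1-fold was 1 with Rpl39l included. It was 0 with Xist alone or equal weight per sex, where Rpl39l has no ratio because the control pool held 0 of its UMIs in cells with Xist (14 in the chelator pool). In the HSC gate 0.0073 became 0.010 scaled without the members, 0.013 with the median set to 0, 0.014 with equal weight per sex, 0.0011 without cells near a threshold, 0.028 with Xist alone and -0.00092 with Y-linked transcripts alone. Single genes that reversed were Rpl10 (0.028) and Rps27 (0.062) with Xist alone, and Rps4x (-0.0045), Rpl36a (-0.0023) and Rpl39 (-0.0064) with Y-linked transcripts alone. The cause was not tested.

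HSC over MPP4, the control value of 0.089 became 0.083 with the stricter filter, 0.12 scaled without the members, 0.096 without mitochondrial genes, 0.11 with the median set to 0, 0.094 thinned, 0.10 with equal weight per cell, 0.10 with Xist, 0.082 with Y-linked transcripts, 0.091 without cells of both sex markers, 0.092 with equal weight per sex, 0.099 without cells near a threshold and 0.076 in cells of 10000 to 15000 UMIs. The chelator value of 0.093 became 0.13 scaled without the members, 0.099 without mitochondrial genes, 0.11 with the median set to 0, 0.097 thinned, 0.12 with Xist, 0.076 with Y-linked transcripts, 0.099 with equal weight per sex and 0.071 in that depth range, where the count of genes more than 25% higher or 20% lower went from 4 to 2.

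Top over bottom cycle group, the control value of -0.25 became -0.24 with the stricter filter, -0.34 scaled without the members, -0.26 without mitochondrial genes, -0.28 with the median set to 0, -0.27 thinned, -0.27 with equal weight per cell, -0.26 with Xist, -0.25 with Y-linked transcripts, -0.30 with 10% tails, -0.18 without the HSC gate and -0.35 in the depth range. The chelator value became -0.25, -0.35, -0.27, -0.27, -0.27 and -0.24 under the first, the second, the third, the thinned, the equal-weight and the Xist setting, -0.31 with 10% tails, -0.20 without the HSC gate and -0.26 in the depth range. No paired analysis was possible because there was 1 pool per condition, and no replicate could be left out. Rpl39l, with 54 UMIs, was the gene most limited by depth.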
